A study of Mus musculus with 7 samples.

Results

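Mural cells, the pericytes and smooth muscle cells that wrap blood vessels, were selected from total hindlimb muscle by their own transcripts. A cell was kept if it had at least 200 detected genes, at most 10% of unique molecular identifiers (UMIs) from mitochondrial genes, and at least 4 UMIs summed over Rgs5, Kcnj8, Abcc9, Acta2 and Myh11. It also had to have 0 UMIs of Pecam1, Ptprc, Tnmd and Pdgfra, which mark endothelial, blood, tendon and fibro-adipogenic cells. These rules chose 92 of 4393 cells (2.09%). Library 1 gave 42 of 1969 cells (2.13%, 95% exact binomial interval 1.54 to 2.87) and library 2 gave 50 of 2424 (2.06%, 1.53 to 2.71). Within the 92 cells, 74 had more Rgs5 than Myh11 UMIs and are called Rgs5-led, 10 had more Myh11 and are called Myh11-led, and 8 had equal numbers.

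The 2 libraries held live cells sorted by flow cytometry after enzymatic dissociation of hindlimb muscle of 3-month-old wild-type C56BL/6J mice, with no injury or other treatment given in the labels, and were made with a droplet kit that reads transcript 3′ ends. The labels do not say how many mice went into a library or whether the libraries came from different mice. With 2 libraries, a p-value measures only the spread between these samples, which may be technical. The series' other 5 libraries hold sorted muscle stem cells, from uninjured muscle or from muscle 60 hours after injury, and cultured myoblasts.

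Pericytes sit inside the basement membrane of capillaries and venules and exchange PDGF, Notch and angiopoietin signals with the endothelium. Smooth muscle cells form the contractile coat of arterioles and larger vessels. Rgs5 limits G protein signalling, Kcnj8 and Abcc9 form a vascular ATP-sensitive potassium channel, and Acta2 and Myh11 encode the actin and the myosin heavy chain of smooth muscle.

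Total counts were 7853341 UMIs in library 1 and 9835824 in library 2, and the median mural cell had 1997.5 and 2276.5 UMIs. Mural cells had about the depth of endothelial cells (medians 2211 and 2321.5) and less than fibro-adipogenic cells (5587 and 5373). Scrublet, a doublet caller run on each library, marked 7 of 1969 and 6 of 2424 cells, and 0 of the 92 mural cells. At so low a rate over all cells, the 0 does not show that the 92 are single cells. The 2 libraries shared 6 cell barcodes, and 0 mural cells had a barcode found in the other total muscle library. In any other library of the series, barcodes of 0 mural cells of library 1 and 2 of library 2 were found.

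The selection left out more marker-positive cells than it kept. Of the 105 and 115 cells with at least 4 mural UMIs in libraries 1 and 2, 63 and 65 also had a UMI of an excluded gene, which was Pecam1 in 58 and 58. The threshold itself cut through few cells: none had exactly 4 mural UMIs, 0 and 2 had 3, and 6 and 1 had 5. Rgs5 was also found in 12.1% and 16.6% of endothelial cells, against 2.81% and 2.38% of B cells, which should lack it and had median depths of 2181 and 2173.5 UMIs. With every cell thinned to 1000 UMIs these shares were 4.90% and 7.51% in endothelial cells and 1.05% and 1.49% in B cells. Both classes were defined to have fewer than 4 mural UMIs, so the shares leave out cells with more Rgs5. The levels of the 5 chosen and 4 excluded genes follow from the selection and are given as description only.

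The label held for most but not all of the 92 cells. In 25 cells (27.2%), marker lists of other cell types held more UMIs than the 5 mural markers together. The 18 such Rgs5-led cells were 16 led by endothelial genes (19 to 114 UMIs), 1 by erythroid genes (59) and 1 by fibro-adipogenic genes (506). In these 16, Pecam1 was 0 by selection while other endothelial transcripts were present, and their pericyte list (Pdgfrb, Cspg4, Notch3, Higd1b, Ndufa4l2, Cox4i2, Vtn, Steap4, Art3 and Mcam) ranged from 0 to 26 UMIs. Only 1 of 10 Myh11-led cells was in this state, with 82 epithelial and 68 smooth muscle UMIs. Of the 8 cells with equal Rgs5 and Myh11, 6 were, led by fibro-adipogenic genes in 4, by epithelial genes in 1 (415 UMIs, beside 114 of Acta2) and by myogenic genes in 1. The remaining 67 cells, 27 and 40 by library, are called marker-dominant, and the counts of called genes and of gene lists below are also given for them.

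**Figure D1:**
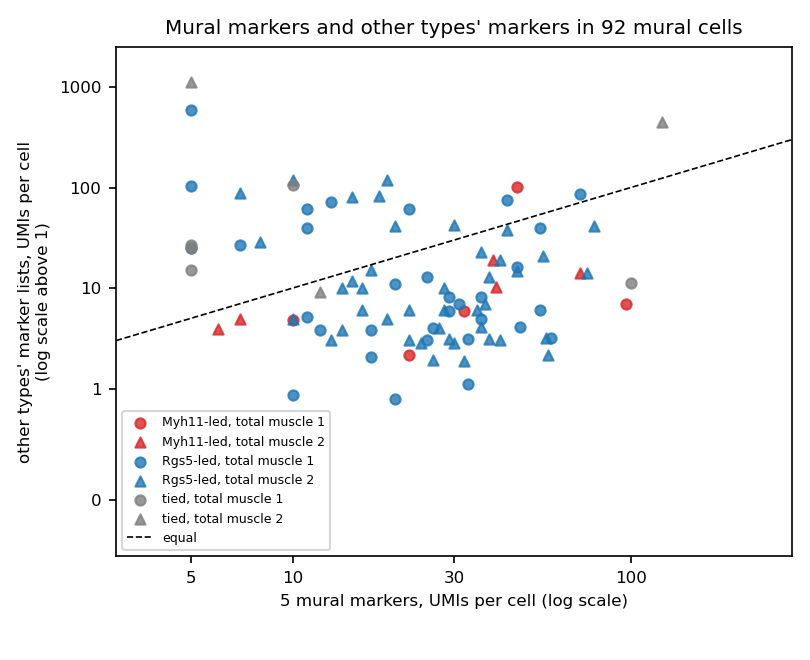
UMIs of the 5 mural markers (horizontal axis) against UMIs of the marker lists of other cell types (vertical axis, with small random offsets) in each of 92 mural cells, by class (tied: equal Rgs5 and Myh11) and library. The horizontal axis is logarithmic and the vertical axis logarithmic above 1. The 25 cells above the dashed line of equality had more UMIs of other types than of mural markers.

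Side by side, Rgs5-led cells carried Rgs5 with the channel genes, and Myh11-led cells carried Acta2 with Myh11. Rgs5-led cells had medians of 20.5 and 18.5 Rgs5 UMIs in the 32 and 42 cells of the 2 libraries (range over both 1 to 46). Myh11-led cells had medians of 1 and 0, in 5 cells of each library (0 to 8). Acta2 went the other way, with medians of 0 and 1 UMIs in Rgs5-led cells and of 26 and 18 in Myh11-led cells, but the ranges of 0 to 49 and 5 to 84 overlapped. Kcnj8 was found in 43 and Abcc9 in 35 of 74 Rgs5-led cells, both in 27 and neither in 23. Neither was found in any of the 10 Myh11-led cells, a number that allows a share of cells with a UMI of up to 30%. The 8 cells with equal counts were of 2 kinds: 5 had neither Rgs5 nor Myh11 and were kept for Acta2 or Kcnj8, and 3 had both genes.

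**Figure D2:**
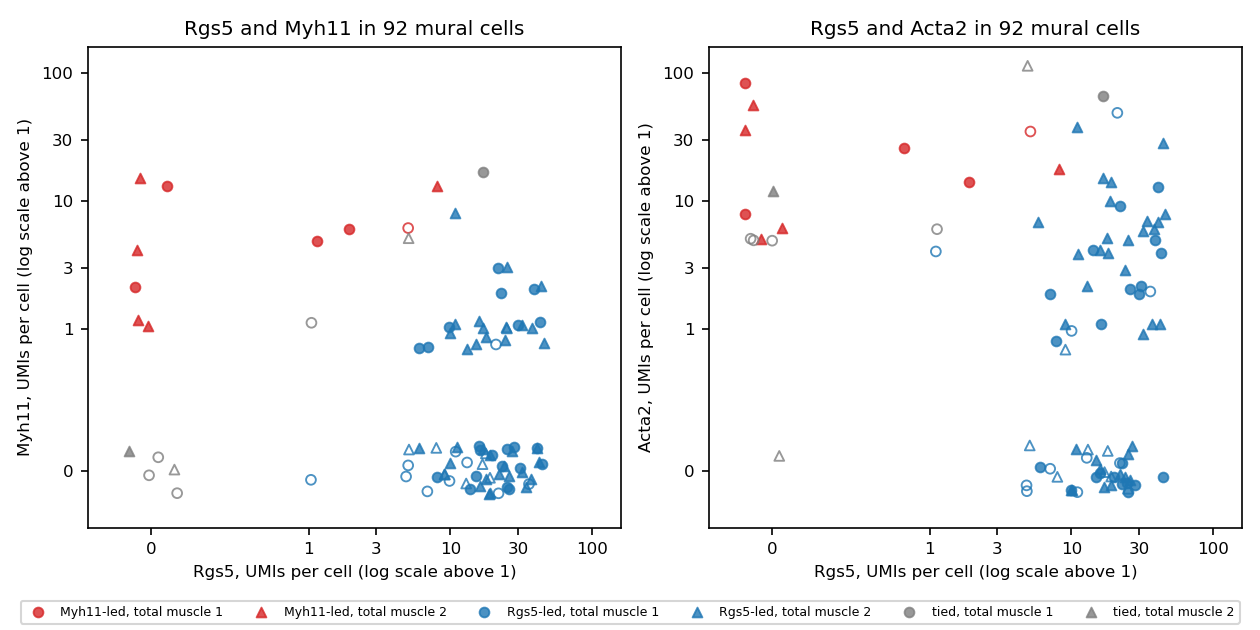
Rgs5 UMIs per cell against Myh11 (left) and Acta2 UMIs per cell (right) in 92 mural cells, with small random offsets to separate equal values and axes logarithmic above 1. Circles are library 1, triangles library 2, and open symbols the 25 cells with more UMIs of other types' markers. Most Rgs5-led cells lie at 0 Myh11 UMIs, while Acta2 runs from 0 to 49 UMIs among them.

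Acta2 ran over a wide range among Rgs5-led cells. In 36 of 74 it was 0, in 31 it was 1 to 9 UMIs, and in 7 cells (2 and 5 by library) it was at least 10. The 7 Acta2-rich cells kept Rgs5 (median 19 UMIs, 11 to 44) and the pericyte list (median 18, 13 to 32), and their smooth muscle list (Tagln, Cnn1, Myl9, Tpm2, Lmod1, Mylk, Des, Smtn, Pln and Mustn1) had a median of 45 UMIs, against 37.5 in Myh11-led cells and 2.5 in Rgs5-led cells without Acta2. Kcnj8 was found in 3 of the 7 and Abcc9 in 1. These cells were also deeper, with a median of 4749 UMIs against 2592.5 in Myh11-led cells and 1763.5 in Rgs5-led cells without Acta2. The list counts are not corrected for depth, so they do not rank the groups. Of the 7 cells, 1 was led by endothelial genes. In 7 and 5 cells by library Rgs5 and Myh11 differed by at most 1 UMI. Of these, 5 and 3 had equal counts and were in neither class, and most of the rest were Myh11-led.

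The 23 Rgs5-led cells with neither Kcnj8 nor Abcc9 differed from the 51 that had a channel transcript. Their pericyte list had a median of 3 UMIs against 15, and their endothelial list a median of 24 against 1. In 13 of the 23, and in 5 of the 51, other types' markers outnumbered the mural markers. Median depths were 2477 UMIs in the 23 cells and 1922 in the 51. These classes were defined by sparse counts of the same cells, so the values are a description.

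The question put to the 2 classes was which other genes differ between Rgs5-led and Myh11-led cells. UMIs were summed per class and library and tested with edgeR's quasi-likelihood test with library as a block, adjusting p over 735 genes, and a gene was called at an adjusted p under 0.05. Contractile genes were higher in Myh11-led cells and chemokines and pericyte genes were higher in Rgs5-led cells. Of all tested genes 10 were higher in Myh11-led cells (1.36%) and 19 in Rgs5-led cells (2.59%), 29 in all. The Myh11-led sums hold 5 cells and 15110 and 14778 UMIs per library, against 76246 and 107325 for Rgs5-led, which limits what could be called. Single cells weighed heavily on them. The largest cell gave 6349 UMIs in library 1, where it was the cell led by epithelial genes, and 5020 in library 2. Of the smooth muscle list UMIs, 1 cell held 110 of 266 in library 1 and 1 cell 118 of 283 in library 2. Without scaling beyond library totals the calls were 8 and 6.

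With this split of the cells, the contractile apparatus held 6 of the 10 genes called higher in Myh11-led cells. With a margin of 4 UMIs or a split on marker sums, both given below, 0 genes were called. Of 22 tested members of the contractile list, 6 were higher in Myh11-led cells and 0 lower. The median log2 difference was 1.57 against -0.10 over all genes. Among marker-dominant cells 6 of 16 were higher, with a median of 1.70. Tagln, an actin-binding protein of smooth muscle, was at 853 and 1090 UMIs per 1000000 of the class (CPM) in Rgs5-led cells of libraries 1 and 2 and at 4302 and 7444 CPM in Myh11-led cells. Its log2 difference was 2.37 (SE 0.29, adjusted p = 0.0152). The groups did not overlap, and Tagln had a UMI in 10 of 10 Myh11-led and 33 of 74 Rgs5-led cells.

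Of the tropomyosins, which set the access of myosin to actin, Tpm1 and Tpm2 were higher in Myh11-led cells, while Tpm4 was not called (log2 -0.19, adjusted p = 0.889). Tpm2 was at 564 and 624 CPM in Rgs5-led and 4897 and 3722 in Myh11-led cells (log2 2.65, SE 0.30, adjusted p = 0.0124), and Tpm1 at 564 and 671 against 3309 and 2842 (log2 2.12, SE 0.30, adjusted p = 0.0239). The essential light chain Myl6 rose by 1.57 on the log2 scale (SE 0.27, adjusted p = 0.0336), a value that is uncertain because a near-identical copy shares its 3′ sequence. Cnn1, calponin, a late marker of contractile smooth muscle, had 17 UMIs in Myh11-led cells and 2 in Rgs5-led cells, a ratio of 52.2 (counting interval 12.4 to 466, adjusted p = 0.0326). The PDZ and LIM domain protein Pdlim3 rose by 3.83 (SE 0.59, adjusted p = 0.0258) and had a UMI in 7 of 10 against 3 of 74 cells.

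Other contractile genes had the same sign without passing the test. The regulatory light chain Myl9 was at 1233 and 1826 CPM against 4434 and 4195 (log2 1.33, adjusted p = 0.0639), and leiomodin Lmod1 at 118 and 74.5 against 1059 and 338 (log2 2.54, adjusted p = 0.0707). Desmin, the intermediate filament Des, was at 184 and 224 CPM against 199 and 338 (log2 0.20, adjusted p = 0.901). Outside the list, the actin-severing protein Dstn (log2 2.74, adjusted p = 0.0380, and 0.0643 among marker-dominant cells) and the adaptor Sorbs2 (log2 3.81, adjusted p = 0.0258) were higher in Myh11-led cells. The matrix proteoglycan Ogn was too (ratio 36.9, counting interval 10.8 to 195), with all 18 UMIs in 2 of 10 cells.

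A mitochondrial transcript, mt-Nd4, was also higher in Myh11-led cells, at 4633 and 5616 CPM against 1194 and 1370 (log2 1.81, SE 0.27, adjusted p = 0.0258). Mitochondrial UMIs took a median of 2.56% and 2.06% of a Myh11-led cell and 0.708% and 0.728% of an Rgs5-led cell. Over both libraries the ranges were 1.15% to 7.56% and 0.126% to 2.77%. The part of this share in the other differences was not tested.

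Promoters of contractile genes are often described through the CArG box, the site bound by serum response factor. The 250 bases before the annotated starts were searched on both strands in RefSeq's promoter table (GRCm38.p6) for exact matches to the box, and to the NF-kappaB site described below. Of 32 contractile genes, Acta2 and Myh11 included, 27 matched the table and 5 of them (18.5%) had a box, against 1.62% of all 27025 genes. They were Cnn2, Ldb3, Myl6, Myl9 and Vcl. Tagln and Myh11 did not match the table, so they were not searched. Of the 6 contractile genes called higher in Myh11-led cells, 5 matched and 1 of these, Myl6, had a box. Acta2 had no exact match, which says only that these letters are not in this window. Its window holds ccctatatgg and ccttgtttgg, each 1 base away from an exact match. Near matches were not counted for any gene. The promoters of Myl9, Myl6 and Acta2 are shown because Myl6 was the called gene with a box, Myl9 held both searched motifs, and Acta2 was among the genes that chose the cells. The Myl6 box lies before 1 of its 2 annotated starts.
Myl9, chr2:156775214-156775463, plus strand, CArG box 161 bases and NF-kappaB site 195 bases before the start, not overlapping, in capitals: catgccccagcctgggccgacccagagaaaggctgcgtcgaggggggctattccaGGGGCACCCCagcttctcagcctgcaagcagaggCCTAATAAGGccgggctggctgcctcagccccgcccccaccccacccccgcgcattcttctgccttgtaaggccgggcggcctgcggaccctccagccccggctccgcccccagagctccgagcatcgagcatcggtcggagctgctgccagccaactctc
Myl6, chr10:128493010-128493259, minus strand, CArG box 50 bases before the start in capitals: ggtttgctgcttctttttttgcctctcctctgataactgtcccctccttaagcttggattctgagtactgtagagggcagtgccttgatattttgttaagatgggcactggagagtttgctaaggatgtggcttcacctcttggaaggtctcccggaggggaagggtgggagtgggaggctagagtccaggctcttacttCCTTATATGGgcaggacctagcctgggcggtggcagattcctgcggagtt
Acta2, chr19:34255374-34255623, minus strand, no capitals: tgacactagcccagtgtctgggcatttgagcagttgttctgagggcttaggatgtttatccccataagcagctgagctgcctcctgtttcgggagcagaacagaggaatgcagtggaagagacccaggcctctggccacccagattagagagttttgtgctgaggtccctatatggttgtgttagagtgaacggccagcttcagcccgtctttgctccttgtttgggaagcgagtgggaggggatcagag
A match is a description of sequence and not evidence of binding in these cells.

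Chemokines were higher in Rgs5-led than in Myh11-led cells. Of 11 tested members of the chemokine, cytokine and complement list, 5 were higher in Rgs5-led cells and 0 lower, with a median log2 difference (Myh11-led minus Rgs5-led) of -3.75. Among marker-dominant cells it was 5 of 9. Immediate early and dissociation-responsive genes moved with the chemokines in sign: only 2 of 30 had a log2 difference toward Myh11-led cells, with a median over the list of -0.95 against -0.10 over all genes (-0.94 among marker-dominant cells). Of the 30, Hspb1 passed the test, higher in Rgs5-led cells. Their part in the chemokine result was not tested. Ccl11, the eosinophil chemoattractant eotaxin, was at 3148 and 7678 CPM in Rgs5-led cells and had 0 UMIs in Myh11-led cells. It was at least 57.7-fold higher, counting the group of 0 as 3 UMIs (adjusted p = 0.00845). Its 1064 UMIs came from 25 of 74 cells, and 1 cell held 25.9% of them.

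Ccl2, which draws monocytes, was at 3620 and 6103 CPM in Rgs5-led cells against 0 and 135 in Myh11-led cells, a ratio of 75.8 (counting interval 20.9 to 627, adjusted p = 0.00845). Cxcl1, which draws neutrophils, was at 7332 and 10342 CPM against 794 and 677 (log2 -3.75, SE 0.36, adjusted p = 0.00845). Groups did not overlap for either gene, and Cxcl1 had a UMI in 5 of 10 Myh11-led cells. Ccl7 (ratio 26.9, counting interval 4.76 to 1067) and Cxcl12, the ligand of Cxcr4 (ratio 21.2, counting interval 5.82 to 176), were higher too, and Cxcl12 had a UMI in 59 of 74 Rgs5-led cells.

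Of these 5 chemokines, Cxcl1 and Cxcl12 matched the promoter table, and Cxcl1 had an NF-kappaB site, as did 4.46% of all genes and 11.1% of the matched contractile genes. Its promoter (chr5:90890995-90891244, plus strand) is shown because Cxcl1 was the called chemokine with a match. The capitals mark 2 overlapping matches, on opposite strands, the first 71 bases before the start.
Cxcl1: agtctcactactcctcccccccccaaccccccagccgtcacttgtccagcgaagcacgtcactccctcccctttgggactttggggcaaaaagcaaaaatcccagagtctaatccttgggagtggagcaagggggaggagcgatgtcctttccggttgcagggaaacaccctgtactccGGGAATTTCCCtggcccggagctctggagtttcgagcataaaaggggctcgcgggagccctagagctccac

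Pericyte genes were higher in Rgs5-led cells for 2 of 7 tested members of the pericyte list, also among marker-dominant cells, and 0 were lower. Steap4, a metalloreductase, was at 1666 and 801 CPM and Vtn, vitronectin of the basement membrane, at 997 and 1332 CPM, both against 0 UMIs in Myh11-led cells (at least 11.6-fold and 11.9-fold, adjusted p = 0.0258 each). Higd1b, a hypoxia-linked mitochondrial protein, was at 341 and 457 CPM against 0 UMIs and did not pass (at least 4.07-fold, adjusted p = 0.0805). Ndufa4l2 (log2 -1.96, adjusted p = 0.0657) and the PDGF receptor Pdgfrb (ratio 3.80, counting interval 1.25 to 18.9, adjusted p = 0.162) did not pass either. Notch3, the Notch receptor of mural cells, had a UMI in 26 of 74 Rgs5-led and 6 of 10 Myh11-led cells.

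The other genes higher in Rgs5-led cells fell in several groups. The endothelin receptor Ednrb (ratio 9.71, counting interval 3.27 to 47.6, adjusted p = 0.0336), the imprinted long noncoding RNA Meg3 (ratio 76.5, 13.7 to 3029) and the hyaluronan-binding protein Tnfaip6 (log2 -3.02, SE 0.44) were found in 46, 48 and 48 of 74 cells. The heat shock protein Hspb1 (log2 -2.63), which shares sequence with a copy, and Ifitm3 (log2 -2.18) were also higher. For the matrix proteins Sparc and Postn, 1 cell held 42.0% and 79.1% of the UMIs in Rgs5-led cells. Of 4 tested endothelial markers, Fabp4 and Cldn5 were called, the latter named after its values were seen. The whole endothelial list was at 7292 and 5814 CPM in Rgs5-led and 265 and 1015 CPM in Myh11-led cells. Among marker-dominant cells Fabp4 was no longer called (log2 -0.51, adjusted p = 0.528). Fabp4 is in the endothelial list that helped to choose those cells, so this is a description only.

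**Figure D3:**
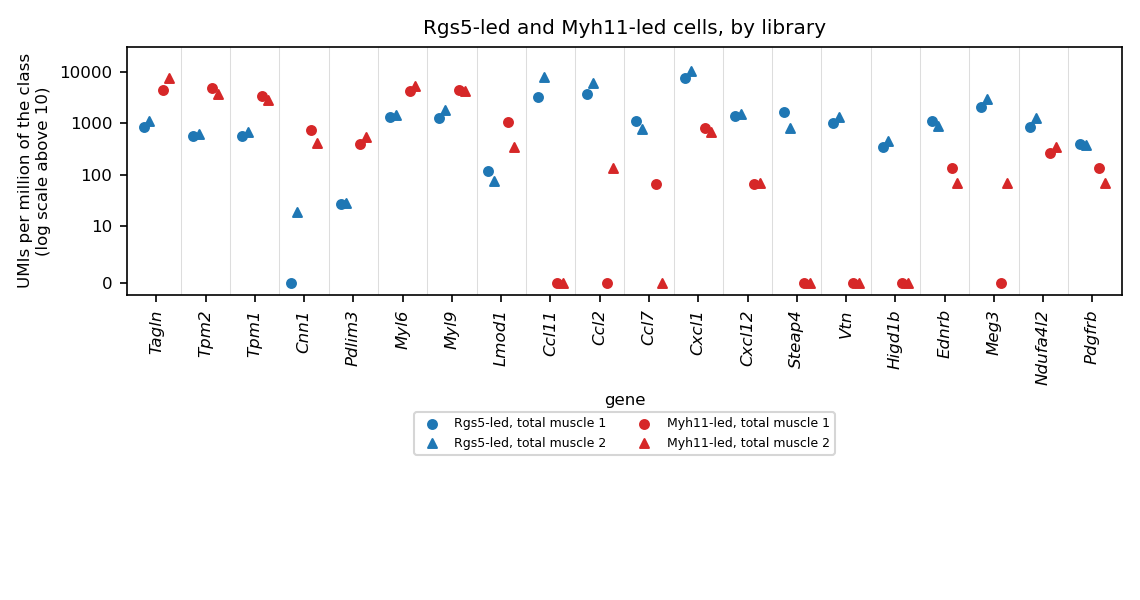
CPM for 20 genes in Rgs5-led (blue) and Myh11-led cells (red), with circles for library 1 and triangles for library 2, on an axis logarithmic above 10. Contractile genes on the left lie higher in Myh11-led cells, and the chemokines and Steap4, Vtn and Higd1b lie higher in Rgs5-led cells, with 0 UMIs of Ccl11, Steap4, Vtn and Higd1b in Myh11-led cells.

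The calls depended on how the classes were drawn. Requiring a difference of at least 4 UMIs left 3 and 3 Myh11-led cells and 0 calls (145 genes at an unadjusted p under 0.05). Splitting on the sum of Rgs5, Kcnj8 and Abcc9 against Acta2 and Myh11, which gave 12 and 8 cells on the contractile side, also left 0 calls (238 at an unadjusted p under 0.05). DESeq2 called 16 of 735 genes, and with cells thinned to 1000 UMIs the test called 54 of the 307 tested. Among marker-dominant cells 31 of 457 tested genes were called, 14 higher in Myh11-led and 17 in Rgs5-led cells, 20 of them shared with the 29.

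Mural cells were next compared with the endothelial cells they wrap, 692 cells chosen by endothelial markers, to describe what sets the mural transcriptome apart. Pericyte genes, contractile genes, receptors for vasoactive signals and chemokines were higher in mural cells, and antigen presentation and lipid uptake genes were higher in endothelial cells. Of 5816 genes tested, 439 were higher in mural (7.55%) and 498 in endothelial cells (8.56%). Without the replicate block 618 and 796 were called, and among marker-dominant cells 525 and 778 of 5531 tested.

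The pericyte list was higher in mural cells for 8 of 9 tested members, and for 9 of 9 among marker-dominant cells. Higd1b was at 215 and 307 CPM in mural and had 0 UMIs in endothelial cells (at least 182-fold, adjusted p = 0.00274). Ndufa4l2 was at 612 and 870 CPM against 5.78 and 4.22 (log2 7.15, SE 0.33, adjusted p = 0.000585). Vtn (log2 7.73, SE 0.31), Pdgfrb (log2 5.77, SE 0.43), Notch3 (log2 4.88, SE 0.43) and Art3 (log2 3.73, SE 0.28) were each higher in both libraries. Mcam, an adhesion molecule shared with endothelium, was not called (log2 1.45, adjusted p = 0.0553).

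Contractile and channel genes were also a mural feature, for 18 of 28 tested contractile genes and 9 of 13 ion channel and calcium handling genes, with 0 lower in either list. Among marker-dominant cells it was 19 of 27 and 8 of 12. Myl9 was at 1473 and 1658 CPM in mural against 3.47 and 5.07 in endothelial cells (log2 8.39, SE 0.27, adjusted p = 0.000285). Lmod1 had 0 UMIs in endothelial cells and was at least 94.9-fold higher, and the chloride channel Ano1 had 37 UMIs against 0. The potassium channel subunit Kcne4 had 71 UMIs against 1, a ratio of 518 (counting interval 90.04 to 20749).

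Receptors and second messengers of vascular tone followed, with 12 of 20 tested genes higher and 0 lower (13 and 2 among marker-dominant cells). Gucy1a3 and Gucy1b3, subunits of the nitric oxide receptor, were at 248 and 275 and at 248 and 225 CPM in mural cells, against 5.78 and 5.91 and 9.25 and 12.7 in endothelial cells (adjusted p = 0.00179 and 0.00263). Ednrb was at 728 and 594 CPM against 78.6 and 121 (log2 2.68, SE 0.28, adjusted p = 0.00423). The trophic factor Bdnf was higher, with 19 UMIs against 0 (at least 46.2-fold).

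Signalling genes between the 2 cell types went both ways. Of 26 tested PDGF, Notch, TGF-beta, angiopoietin and VEGF genes, 6 were higher in mural cells (Jag1, Notch2, Notch3, Pdgfrb, S1pr3 and Tgfb3) and 8 in endothelial cells, against 7 and 8 of 25 for marker-dominant cells. S1pr3, a receptor for sphingosine 1-phosphate, had 44 UMIs against 1 (ratio 321, counting interval 54.7 to 12967), and the angiopoietin co-receptor Tie1 was lower in mural cells (log2 -2.82, SE 0.31). Of 22 transcription factors 8 were higher in mural cells, among them Zeb2 (log2 4.41, SE 0.55) and Ebf1 (log2 1.13, SE 0.20), and 1 was lower, the same numbers as among marker-dominant cells. The laminin-binding integrin Itga7 was at 190 and 106 CPM against 2.31 and 5.07 (log2 5.07, SE 0.54, adjusted p = 0.00455).

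Chemokine, cytokine and complement genes were higher in mural cells for 17 of 25 and lower for 3, and among marker-dominant cells for 11 and 5 of 23. Ccl11 was at 1986 and 5167 CPM against 48.6 and 43.1 (log2 6.12, SE 0.43, adjusted p = 0.00194) and Cxcl1 at 6777 and 7244 against 1212 and 1098 (log2 2.56, SE 0.15, adjusted p = 0.00144). On the endothelial side, 14 of 24 antigen presentation and interferon genes were higher in endothelial cells (19 of 24 against marker-dominant cells), as B2m (log2 -1.64, SE 0.15), and 1 was higher in mural cells, Ifitm1, whose value is uncertain because of a near-identical copy. Of 12 metallothionein and lipid handling genes 6 were lower in mural cells and 2 higher (8 and 3 among marker-dominant cells), and Mt1, a metal-binding protein, rose by 2.08 (SE 0.18). The scavenger receptor Cd36 (log2 -1.83, SE 0.19) and Icam1 (log2 -2.91, SE 0.28) were lower in mural cells. Venular genes Selp and Ackr1 were at 0 and 25.02 and at 0 and 12.5 CPM in mural cells, against 2248 and 2263 and 688 and 858 in endothelial cells. All 5 tested endothelial markers were lower in mural cells. They were lower in marker-dominant cells too, but these genes are in the lists that chose those cells, so that part is a description only.

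The comparison with 315 fibro-adipogenic cells, chosen by Pdgfra, asked what separates mural cells from the other mesenchymal cells of muscle. Mural cells were higher in 616 of 5475 tested genes (11.3%) and lower in 589 (10.8%). Without scaling beyond library totals the numbers were 813 and 506, and among marker-dominant cells 395 and 483 of 5054 tested. The contractile list was higher for 23 of 27 tested genes and lower for 0, and the smooth muscle markers for 9 of 9. Among marker-dominant cells these were 20 of 26 and 8 of 8.

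Tagln had 432 UMIs in mural and 3 in fibro-adipogenic cells, a ratio of 944 (counting interval 321 to 4596). The pericyte markers were higher for 9 of 10, marker-dominant cells included, but the margin varied with the gene. Vtn (log2 2.77, SE 0.27), Steap4 (2.64, SE 0.30) and Pdgfrb (1.601, SE 0.30) were present in both classes, at 126 and 82.8, 87.7 and 131, and 72.6 and 79.2 CPM in fibro-adipogenic cells. Higd1b was at 0 UMIs there (at least 164-fold), Gucy1a3 at 2 (ratio 243, counting interval 64.8 to 2041) and Ednrb at 2 (ratio 600, 164 to 4991). The Notch target Nrarp (ratio 213, counting interval 56.7 to 1797) and the hypoxia factor Epas1 (log2 4.48, SE 0.38) were higher in mural cells as well.

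Matrix genes set fibro-adipogenic cells apart, with 23 of 41 interstitial matrix genes lower in mural cells and 6 higher (27 and 5 among marker-dominant cells). Dcn, decorin, was at 852 and 5811 CPM in mural against 18476 and 21186 in fibro-adipogenic cells (log2 -3.27, SE 0.34). The mural values of matrix genes differed between libraries, with Dcn high in library 2, and Col1a2 (3045 and 219 CPM) and Col3a1 (2872 and 200) high in library 1. Single cells weighed heavily on these sums. Of the mural UMIs of the fibro-adipogenic list, which includes Dcn and Col3a1, 1 cell held 506 of 761 in library 1 and 1 cell held 1101 of 1274 in library 2. Neither cell is marker-dominant. Col1a2 had a fitted log2 difference of -1.31 (adjusted p = 0.0491) over both libraries and of -3.86 in marker-dominant cells. Log2 ratios of CPM with a small count added, not from the fit, were 0.48 within library 1 and -3.08 within library 2. The basement membrane gene Nid1 (log2 -2.36, SE 0.28) and the complement inhibitor Serping1 (log2 -2.42, SE 0.20) were lower in mural cells. So were Igf1, a growth factor (log2 -4.34, SE 0.47), and the basement membrane collagen Col15a1 (log2 -4.08, SE 0.43), while the cytokine Il6 was higher, at 2507 and 2521 against 741 and 875 CPM (log2 1.47, SE 0.18, adjusted p = 1.72e-06).

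Fibro-adipogenic cells carried many of the same chemokines. Of 25 tested chemokine, cytokine and complement genes 5 were higher in mural cells and 8 lower, and among marker-dominant cells 5 and 9 of 26. Ccl11 was at 1986 and 5167 CPM in mural and 1784 and 2742 in fibro-adipogenic cells (log2 0.37, adjusted p = 0.165), and the groups overlapped. Ccl2 (log2 -0.16, adjusted p = 0.514) and Cxcl1 (log2 0.12, adjusted p = 0.627) were not called either. Cxcl14 (log2 -2.33, SE 0.23) and Ccl7 (log2 -1.64, SE 0.26) were lower in mural cells.

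Some calls changed when the 25 cells with more markers of other types were left out. Of the endothelial markers, 7 of 9 were higher in mural than in fibro-adipogenic cells and 1 lower, and among marker-dominant cells 3 of 6 were higher and 2 lower. The 3 tested epithelial markers were higher too, and Sfn (521 and 1195 CPM against 5.48 and 1.80) was likewise called. Neither the epithelial markers nor Sfn could be tested without the 25 cells. The marker lists themselves chose the 25 cells, so the changes in endothelial and epithelial markers are a description only. Apoe, a lipid carrier, was higher over all mural cells (log2 1.599) and lower in marker-dominant cells (log2 -1.84, adjusted p = 0.0105). Of the 1205 genes called in all mural cells against fibro-adipogenic cells, 768 were also called in marker-dominant cells, and of the 937 against endothelial cells, 805 were.

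**Figure D4:**
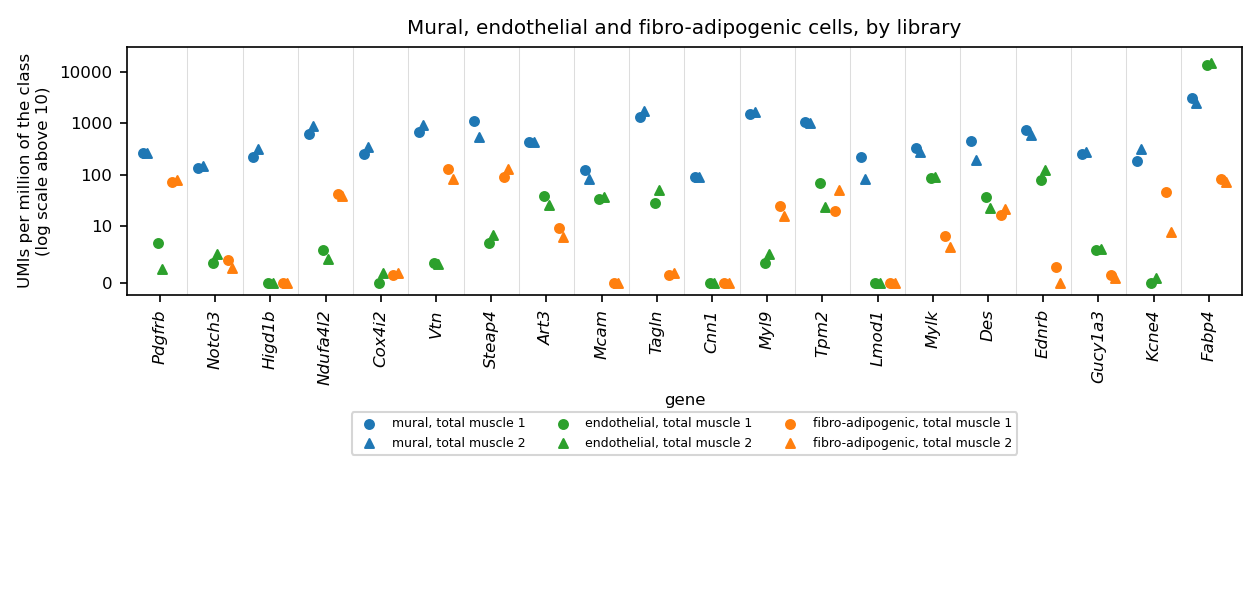
CPM for 20 genes in mural (blue), endothelial (green) and fibro-adipogenic cells (orange), with circles for library 1 and triangles for library 2, on an axis logarithmic above 10. Pericyte genes on the left and contractile genes in the middle lie highest in mural cells, and Fabp4 at the right lies highest in endothelial cells.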

How the data were processed

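The 7 libraries of mouse muscle cells were read, and the 2 total muscle libraries were compared. Per the submitters' processing notes, Cell Ranger 2.2.0 with build mm10 made the data, and bcl2fastq 2.17.1 and Seurat 2.3.4 are also named. The authors' deposited matrices hold counts of UMIs per gene and cell, not normalized, and the annotation release is not given in the sources used here. Gene names came from the deposited files. Cells were filtered, classed and summed per library and class from the counts. Endothelial cells needed 4 UMIs of endothelial markers, fibro-adipogenic cells 2 of Pdgfra, both with fewer than 4 mural UMIs and none of Myh11 or of the other classes' excluded genes. Genes passing edgeR's filterByExpr were tested with its quasi-likelihood test, TMM scaling, library as a block and Benjamini-Hochberg adjustment, separately in 3 comparisons, and the procedure was tested on simulated data with known changes. Both classes of a library come from 1 suspension, which is why libraries pair. CPM uses all UMIs of a class. A counting interval is a 95% interval that covers counting error only, as do the floors of 3 counts and the binomial intervals. Named genes are, per comparison, the 12 called genes of largest fold each way with at least 50 CPM in the higher class (for the other comparisons at least 100 CPM, 12 higher in mural cells and 6 lower), up to 4 called or else 2 abundant uncalled genes per list, and the pericyte and smooth muscle markers. Doublets were called with Scrublet and kept. The members and lists were chosen with earlier results of these data known. Alternatives were the split, margin, block, DESeq2, scaling, filter, thinning to 1000 UMIs and left-out cells and libraries. Some of them, the marker-dominant cells for the 2 class comparisons and the share, and library totals of before the filter, were chosen after seeing the data. Some named genes are not reported here.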

Additional observations from a re-analysis of the deposited data

Results flagged for a closer look

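Cells meeting the same marker thresholds were also present in libraries outside the comparisons, above what a count of 0 allows. There were 37 in the first and 28 in the second library of homeostatic muscle stem cells, 10 in the first library of injured muscle stem cells and 2900 of 4414 (65.7%) in the primary myoblast library. In the homeostatic libraries 15 and 8 of them were Rgs5-led. Those cells had Ccl11 at 12614 and 10544 CPM and Cxcl1 at 15438 and 22178 CPM, against 3148 and 7678, and 7332 and 10342, in Rgs5-led cells of total muscle, while their pericyte list was at 4269 and 1265 CPM against 5600 and 5693. These groups share the selection and were not tested against each other. Acta2 held most of the marker UMIs in 25 of 37 and 23 of 28 homeostatic cells, in 10 of 10 injured cells and in 2860 of the 2900 myoblasts. The myogenic list had a median of 7 and 15 UMIs in the homeostatic cells, 10.5 in the injured cells and 47 in the myoblasts. This list includes Des, also a smooth muscle marker, which was left out where cells led by other types were counted. The median of the pericyte list was 0 in the injured cells and the myoblasts, and 0 of the myoblasts had a Kcnj8 UMI. Their 261 Rgs5-led cells had a median of 1 Rgs5 UMI and 18 of Myod1, the myogenic factor.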

How the results depend on the processing

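Of 211 named values under 2123 alternatives, 1717 were counted as unchanged, 162 were no longer past the threshold, 27 newly passed it, 213 moved and 4 reversed. A further 81 alternatives gave no value. Where a test was run, unchanged means the same side of the threshold, and an uncalled gene that changed sign is included. Without replicate 1 or 2, 106 and 102 values counted as unchanged because the log2 difference stayed within the standard deviation of the libraries. All 213 moved values come from these settings. Their values are log2 ratios of CPM within 1 library, with a small count added and no TMM scaling, while the main values come from the edgeR fit. The part of this change of measure in the moved values was not tested. Between Rgs5-led and Myh11-led cells, 29 of 735 tested genes were called. Of the same 735, 16 were called with DESeq2, 14 without scaling (8 and 6) and 78 with library totals of before the filter. Other settings changed the number tested. With cells thinned to 1000 UMIs 54 of 307 were called, and without the filter 140 of 10783. A margin of 4 UMIs gave 0 of 671 and marker sums 0 of 990. Without the replicate block 25 were called, of which 21 were among the 29. Against endothelial cells 937 of 5816 were called. Of the same genes, DESeq2 called 396 and the test without the replicate block 1414. Thinned it was 517 of 2942, and without the filter 1580 of 14780. Against fibro-adipogenic cells 1205 of 5475 were called. Of the same genes, DESeq2 called 333 and the test without the replicate block 1189. Thinned it was 610 of 1458. The pooled share of 2.09% was 3.05% with at most 1 UMI of each excluded gene, 1.53% for marker-dominant cells, and 2.06% to 2.13% without replicate 1 or 2. Apoe against fibro-adipogenic cells reversed to -1.59 for Rgs5-led cells and to -1.84 for marker-dominant cells, Col1a2 ran from -3.08 to 0.48 without replicate 1 or 2, and Postn between the classes to 1.599 with marker sums. The cause was not tested. Leaving out a library leaves no residual degrees of freedom, so those values carry no test. Depth limits the Myh11-led class, in which a count of 0 allows up to 100.4 CPM.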
